A study of Mus musculus with 16 samples.

Results

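The genes described here encode the proteins of the mitochondrial ribosome and were chosen by name. Every gene of the count table whose symbol begins with Mrps or Mrpl followed by a digit was taken, pseudogenes were left out, and at least 10 reads over the 16 libraries were required. This gave 78 genes, 29 with an Mrps name and 49 with an Mrpl name, of 40840 genes in the table, and 0 names were lost to the read minimum. All 78 are among the 20444 genes tested. The libraries were made from poly(A) RNA of p53-/-; Myc hepatoblasts, a mouse liver progenitor line used as a model of hepatocellular carcinoma (HCC). All 4 groups share the loss of p53 and the overexpression of Myc. Cells received sorafenib (8.5 µM), an oral inhibitor of Raf, VEGF receptors and other kinases, or its vehicle DMSO, for 48 hours or for 7 days. The groups are named DMSO_48h, Sorafenib_48h, DMSO_7d and Sorafenib_7d, with 4 libraries each. The study asked how the drug affects mitochondria and metabolism, and the comparison below asks which mitoribosomal transcripts differed between drug and vehicle at each time. The sources used here do not say that replicates came from separate cultures, so p-values measure only the spread between these libraries.

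Mitochondrial ribosomes translate the few messages encoded by mitochondrial DNA, all of them for parts of the oxidative phosphorylation complexes. Their ribosomal RNAs are made inside the organelle, but every one of their proteins is encoded in the nucleus, made in the cytosol and imported, so the particle depends on matched output of many genes on many chromosomes. A small subunit (Mrps proteins) holds the messenger RNA and its decoding site, and a large subunit (mostly Mrpl proteins) forms peptide bonds and releases the nascent chain through an exit tunnel at the inner membrane. Part of the proteins descend from bacterial ribosomal proteins, and the others were acquired by mitochondria. In bulk RNA, fewer cells with a transcript and less transcript per cell cannot be told apart.

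Library depth ranged from 16586254 to 30828427 counts. Values are given per library as normalized counts, that is counts scaled with TMM factors to a common library size, and changes as log2 fold changes of sorafenib over DMSO from edgeR's quasi-likelihood fit, with their standard error (SE) and a false discovery rate (FDR) adjusted over all tested genes. A gene was called higher or lower at an FDR under 0.05. Libraries of a group stood apart in 2 ways. In Sorafenib_48h replicate 2, counts were lower by 0.71 on the log2 scale for genes lying after position 103350847 of chromosome 14 and on every later chromosome (15 to 19 and X, GRCm39), whereas the largest such step in the other 15 libraries was 0.069. The lowered region holds 3908 of the 18033 genes tested that could be placed on a chromosome and 17 of the 78 mitoribosomal genes. For these 17, the change at 48 hours is given with and without this library. DMSO_7d replicate 4 differed from its group by a chi-square per gene of 53.1 to 71.5, of which 89.4% to 91.6% came from AY036118, LOC118568312 and Lars2. The median chi-square of these pairs over genes was 1.17 to 1.29, against 6.86 to 7.45 for Sorafenib_48h replicate 2, and leaving out DMSO_7d replicate 4 changed the call of 0 of 96 results for named members. The same 3 genes also set DMSO_48h replicates 1 and 4 apart from replicates 2 and 3. Between these, the chi-square per gene was 18.7 to 42.7, of which 78.8% to 88.8% came from the 3 genes. Of the 7 hepatoblast markers, Dlk1, Krt19, Sox9, Krt8 and Krt18 were detected in all 4 groups, Epcam had group means of 2.78 to 29.3 normalized counts and Afp of 0.217 to 9.45. At 48 hours and 7 days the log2 fold changes were -1.63 and -2.06 for Dlk1, -0.77 and -0.52 for Krt19, -0.69 and -1.10 for Krt8, -0.40 and -0.92 for Krt18, -2.13 and -2.67 for Epcam, and 1.64 and 1.37 for Sox9, all called, also without Sorafenib_48h replicate 2. The part of these shifts in the changes below was not tested. The hepatocyte markers Alb and Hnf4a were at or near 0. Of the markers of other cells, Ptprc (leukocytes), Cdh5 (endothelium), Lrat (stellate cells) and Adgre1 (macrophages) had group means under 1 normalized count. Pecam1 reached 4.73 at most, and the collagen gene Col1a1 was abundant, with 41939 ± 1148 normalized counts in DMSO_48h and 81072 ± 2931 in Sorafenib_48h (SD, n = 4).

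The upstream sequences of 7 members with opposite or shared responses are shown first, because the transcripts of 1 particle responded differently and their start regions can be set side by side. They come from RefSeq (GRCm38.p6), whose promoter table holds 69 of the 78 members. Each runs 5′ to 3′ on the strand of the gene and ends at the base before the start. Capitals mark matches, on either strand, to the letters CCGGAAGT (ETS family), GCATGCGC (NRF1), CACGTG (E-box) and AAGATGGC (YY1). Mrps21 fell most at 48 hours, Mrpl18 fell most at 7 days, Mrpl17 and Mrpl36 fell at both times, Mrpl32 rose at both times, Mrpl22 rose at 48 hours, and Mrpl20 rose at 48 hours and fell at 7 days.
Mrps21 (chr3:95871515-95871634, minus strand, no match): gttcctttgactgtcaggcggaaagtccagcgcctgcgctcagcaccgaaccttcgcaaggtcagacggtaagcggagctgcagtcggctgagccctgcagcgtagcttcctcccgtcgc
Mrpl18 (chr17:12916092-12916341, minus strand, ETS): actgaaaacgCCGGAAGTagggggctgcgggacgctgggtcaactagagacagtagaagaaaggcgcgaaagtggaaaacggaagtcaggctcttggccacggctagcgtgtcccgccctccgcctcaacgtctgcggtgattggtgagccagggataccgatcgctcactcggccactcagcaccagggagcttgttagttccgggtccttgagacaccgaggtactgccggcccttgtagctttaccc
Mrpl17 (chr7:105811088-105811147, minus strand, NRF1 on the reverse strand): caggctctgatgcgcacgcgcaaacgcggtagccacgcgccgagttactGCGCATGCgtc
Mrpl36 (chr13:73330949-73331008, plus strand, E-box and then YY1 on the reverse strand): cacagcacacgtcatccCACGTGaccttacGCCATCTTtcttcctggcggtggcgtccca
Mrpl32 (chr13:14613038-14613091, minus strand, NRF1): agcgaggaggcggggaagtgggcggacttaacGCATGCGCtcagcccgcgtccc
Mrpl22 (chr11:58171604-58171663, plus strand, NRF1 on the reverse strand): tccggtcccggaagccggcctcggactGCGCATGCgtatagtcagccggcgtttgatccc
Mrpl20 (chr4:155802818-155802877, plus strand, E-box): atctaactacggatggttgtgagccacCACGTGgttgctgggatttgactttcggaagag
The same 8 letters of NRF1 thus stand close to the start in Mrpl17, Mrpl22 and Mrpl32, whose transcripts changed in different directions.

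Over windows of 300 bases, 250 before and 50 after the start, NRF1 letters were found in 8 of 69 members (11.6%), against 5.58% of 11049 promoters of genes averaging 100 counts or more. The ETS letters were found in 12 members (17.4%, against 8.77%) and the YY1 letters in 12 members (17.4%, against 4.75%). The E-box was found in 5 members (7.25%, against 10.4%). Letters that resemble the ATF4 composite site (TGATGNAA) were found in 0 members, and in 2.04% of those promoters. Over all 32851 promoters in the table the shares were 2.71% for NRF1, 3.89% for ETS, 2.75% for YY1, 7.15% for the E-box and 3.97% for ATF4. At least 1 of the ETS, NRF1 and YY1 letters was present in 29 members (42.0%), against 8.83% of all promoters. This combined share was not computed for promoters of genes averaging 100 counts or more, in which each of the 3 motifs was more frequent than in all promoters. Of the 12 members with ETS letters, 3 were higher and 5 lower at 48 hours, and 2 were higher and 8 lower at 7 days. Of the 8 with NRF1 letters, 4 were higher and 1 lower at 48 hours, and 2 were higher and 3 lower at 7 days. Of the 12 with YY1 letters, 3 were higher and 6 lower at 48 hours, and 4 were higher and 8 lower at 7 days. In the 57 members without ETS letters these counts were 22 and 18, then 14 and 28. In the 61 without NRF1 letters they were 21 and 22, then 14 and 33, and in the 57 without YY1 letters 22 and 17, then 12 and 28. Of genes averaging 100 counts or more, 40.8% were higher and 35.5% lower at 48 hours, and 35.8% and 40.6% at 7 days. Over all tested genes the shares were 26.9% and 27.7%, then 28.9% and 27.9%. Members with each motif changed in both directions, and differences by motif were not tested. A match describes letters in a window and not bound factor.

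In DMSO_48h the members spanned a wide range of levels per kilobase of transcript, although their proteins are mostly present once in each particle. Mrpl42, a mitochondria-specific protein of the large subunit, was highest at 2198 ± 89.4 normalized counts per kilobase (SD, n = 4). Mrpl28 (1937 ± 127), Mrpl20 (1694 ± 156), Mrpl13 (1625 ± 57.0) and Mrpl34 (1612 ± 81.9), all counterparts of bacterial proteins, followed. Mrpl13 and Mrpl34, neighbours in this order, differed by less than their SDs. The lowest were Mrps28 (116 ± 7.19), Mrpl48 (137 ± 6.66), Mrpl55 (138 ± 5.27), Mrps25 (142 ± 9.79) and Mrps33 (156 ± 21.8 normalized counts per kilobase), and of these Mrpl48, Mrpl55, Mrps25 and Mrps33 lay within 1 SD of a neighbour. Lengths are those of the Ensembl canonical transcript, and a gene that is mostly read from a shorter transcript is understated. Transcripts of the members were short, with a median of 1812 bases against 3651 in 10254 protein-coding genes averaging 100 counts or more.

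At 48 hours of sorafenib, 30 of the 78 members were higher, 24 were lower and 24 were not called. The share called, 69.2%, is set against 54.6% of all tested genes (26.9% higher and 27.7% lower) and 76.4% of the 10660 genes averaging 100 counts or more (40.8% higher and 35.5% lower), a range of level to which the members belong and which is called the better-counted genes below. In 42 members (53.8%) the 4 sorafenib libraries did not overlap the 4 DMSO libraries, against 48.0% of all tested genes. The median log2 fold change was -0.018, against -0.051 over all tested genes and 0.021 over the better-counted genes. Log2 fold changes ran from -0.86 to 0.49, so that no member doubled or halved. With scaling by total counts alone, 23 members were higher and 31 lower, and with an offset for the lowered library 29 were higher and 30 lower. Without Sorafenib_48h replicate 2, 33 were higher and 26 lower. Among the 61 members outside the lowered region, 26 were higher and 17 lower, and these counts were 26 and 20 without that library. With the offset they were 23 and 24, so the split of these 61 members also depended on how that library was handled. Their median log2 fold change was 0.0485, against 0.0161 without the library and 0.0019 with the offset.

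**Figure D1:**
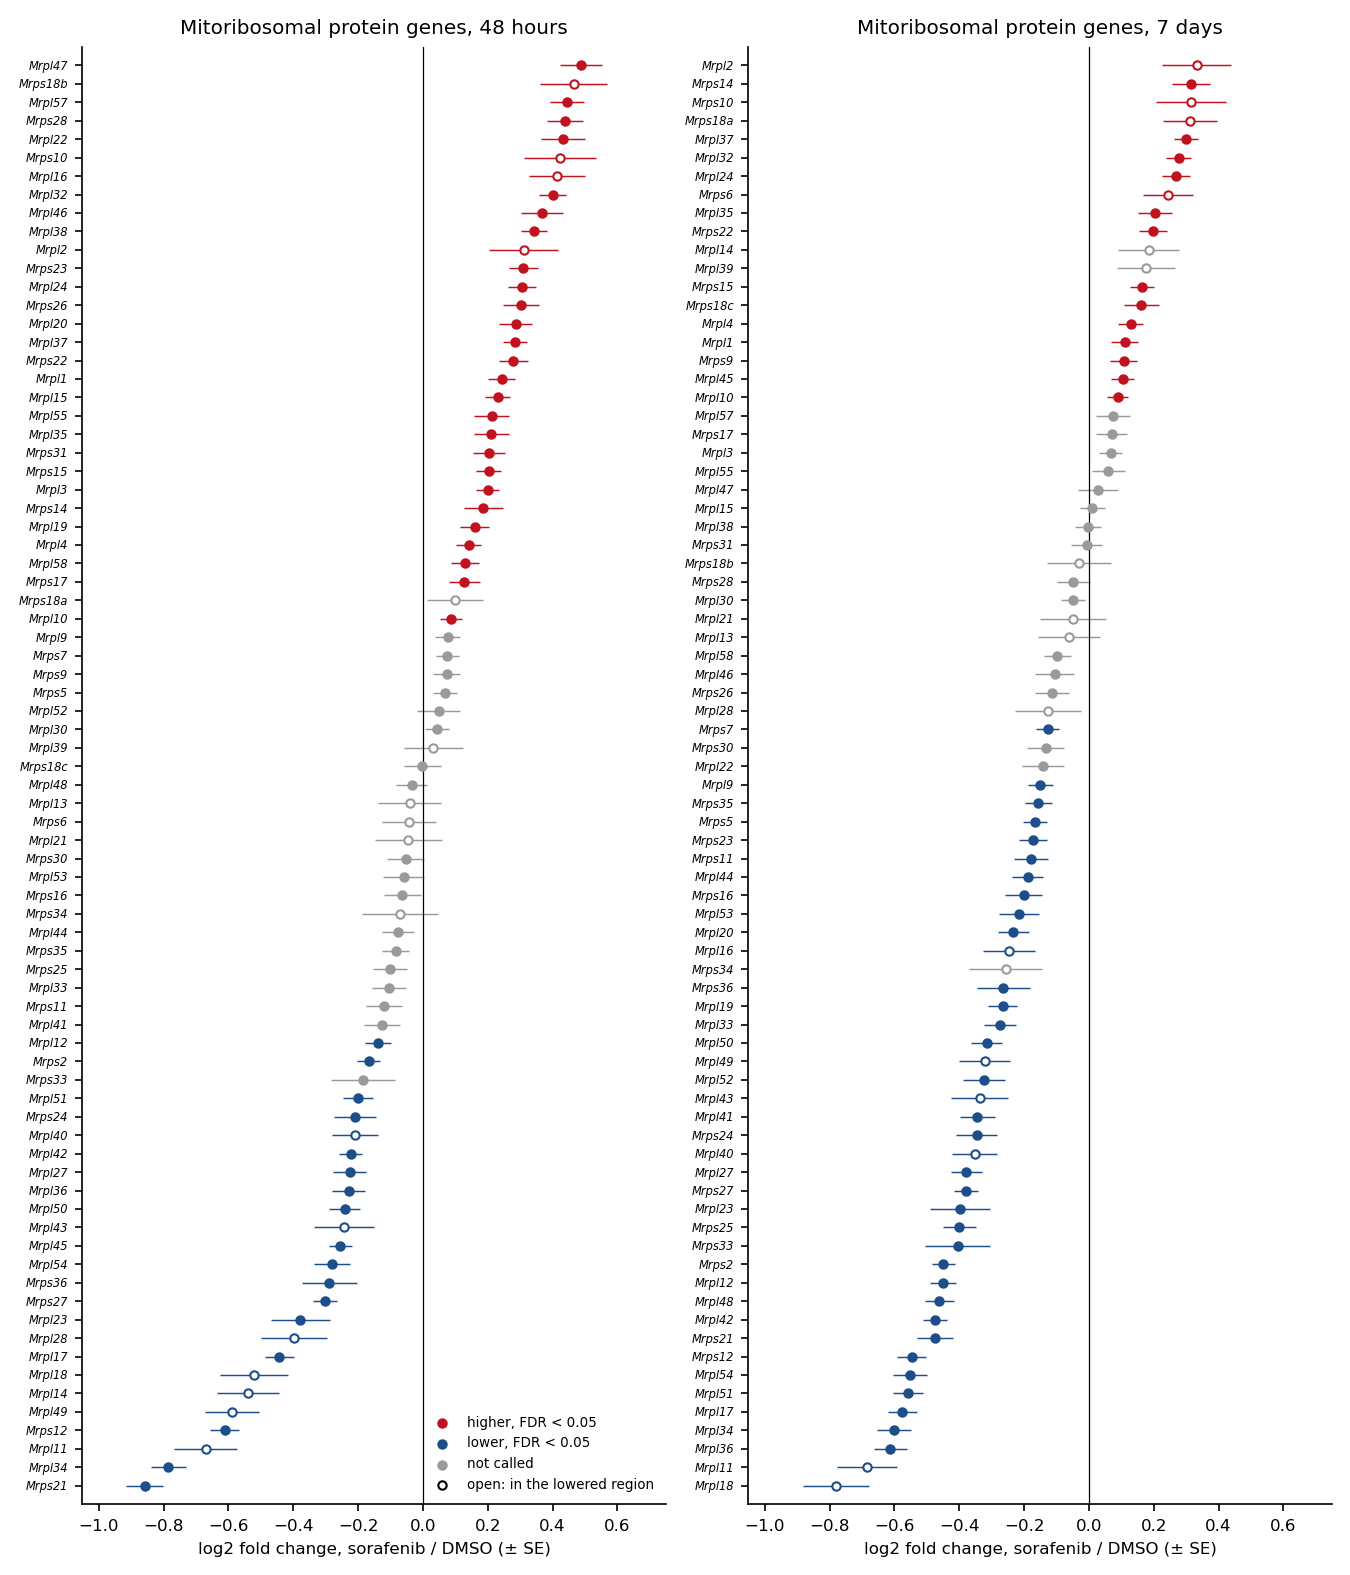
Log2 fold changes (sorafenib over DMSO, x axis) of the 78 mitoribosomal protein genes, ordered by their value at each time, with bars for the SE. Open markers are genes in the lowered region of Sorafenib_48h replicate 2. At 48 hours the values run from -0.86 to 0.49 with a median near 0, and at 7 days from -0.78 to 0.33 with a median of -0.15.

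Among transcripts that fell at 48 hours and whose groups did not overlap, Mrps21, the small-subunit counterpart of bacterial S21 (chr3:95766069-95778879, GRCm39), changed most. Its 4 DMSO_48h libraries had 919, 811, 809 and 831 normalized counts, and the 4 Sorafenib_48h libraries had 439, 516, 475 and 432. The groups were far from overlapping, and the transcript fell by 44.8% (log2 fold change -0.86 ± 0.057, SE, FDR = 7.29e-11). Mrpl34, a large-subunit protein of bacterial origin (chr8:71917555-71918396), had 1128, 1049, 1049.5 and 998 normalized counts in DMSO_48h and 657, 570.1, 583 and 641 in Sorafenib_48h, and fell by 42.0% (log2 fold change -0.79 ± 0.053, FDR = 9.93e-11). A lncRNA on the opposite strand covers 81.4% of the exon bases of Mrpl34. Mrps12, part of the decoding centre of the small subunit (chr7:28439066-28441680), had 1059, 1029, 944 and 949.7 in DMSO_48h and 649.6, 647, 635 and 675 in Sorafenib_48h. It fell by 34.5% (log2 fold change -0.61 ± 0.046, FDR = 4.36e-10). Mrpl17, which lies near the exit of the tunnel, fell from 2274 ± 32.0 to 1676 ± 100.1 normalized counts (SD, n = 4; log2 fold change -0.44 ± 0.045, FDR = 4.39e-08). In each of these 4 genes every sorafenib library was below every DMSO library.

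The other 4 of the 8 largest falls at 48 hours lie in the lowered region. Mrpl11, which forms the base of the stalk that recruits translation factors (chr19:5012163-5017100), had 1273, 1310.0, 1251 and 1262 normalized counts in DMSO_48h and 923, 539.8, 859 and 861 in Sorafenib_48h, where replicate 2 was the lowest. Its log2 fold change was -0.67 ± 0.096 (FDR = 5.41e-06), and -0.54 without replicate 2 (FDR = 1.21e-15). Mrpl18, a central protuberance protein (chr17:13130034-13135718), had 1685, 1541, 1549 and 1484 in DMSO_48h and 1180.0, 726, 1206 and 1219.8 in Sorafenib_48h, with a log2 fold change of -0.52 ± 0.10 (FDR = 0.000249) and of -0.38 without replicate 2 (FDR = 2.01e-10). Mrpl49, a mitochondria-specific large-subunit protein, gave -0.59 ± 0.082 (FDR = 3.77e-06) and -0.47 without replicate 2. Mrpl14, the large-subunit protein bound by the silencing factor Malsu1, gave -0.54 ± 0.096 (FDR = 7.23e-05) and -0.41 without replicate 2. All 4 kept their call without that library, with smaller changes, and Mrpl23 (-0.41) then fell more than Mrpl14 and Mrpl18.

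The order of the rises at 48 hours depended on Sorafenib_48h replicate 2. Over all libraries Mrpl47 rose most among members whose groups did not overlap. Without that library, Mrps18b (0.60), Mrps10 (0.57), Mrpl16 (0.52) and Mrpl2 (0.46), all in the lowered region, came before Mrpl47 (0.46), and their other 3 sorafenib libraries did not overlap DMSO_48h. Over all libraries these 4 gave 0.47, 0.42, 0.41 and 0.31, and replicate 2 alone made their groups overlap. This order was examined after the data were seen. Mrpl47, a large-subunit protein at the tunnel exit (chr3:32779546-32791754), had 567, 573, 543 and 500.3 normalized counts in DMSO_48h and 682, 821, 739.5 and 819 in Sorafenib_48h, a rise of 40.2% (log2 fold change 0.49 ± 0.065, FDR = 2.23e-06). Mrpl57, a small mitochondria-specific protein of the large subunit (chr14:58063648-58066757), had 798, 658, 690.1 and 716 in DMSO_48h and 995, 989, 974 and 938 in Sorafenib_48h (log2 fold change 0.44 ± 0.053, FDR = 5.12e-07). Mrps28, the counterpart of bacterial S1 (chr3:8865093-8988978), had 347, 346, 344 and 304 and 429, 454, 464 and 467 (log2 fold change 0.44 ± 0.056, FDR = 1.21e-06). In these 3 genes the groups did not overlap.

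Mrpl22, another protein of the tunnel exit (chr11:58062475-58070412), rose from 598 ± 75.7 to 806 ± 20.3 normalized counts (SD, n = 4; log2 fold change 0.43 ± 0.067, FDR = 1.49e-05). Mrpl32, which is matured inside mitochondria by the m-AAA protease (chr13:14782769-14787750), rose by 32.0% (log2 fold change 0.40 ± 0.041, FDR = 5.52e-08). Mrpl46 (0.37 ± 0.065) and Mrpl38 (0.34 ± 0.04), both mitochondria-specific proteins of the central protuberance, and Mrps23 (0.31 ± 0.045), a mitochondria-specific protein of the small subunit, completed the 8 largest rises without overlap over all libraries, with FDRs of 6.31e-05, 4.07e-07 and 5.64e-06. Values for Mrpl32, Mrpl22 and 6 other members are plotted by library.

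The 7 further members of the lowered region are given here at 48 hours. Mrpl16 rose by 0.41 ± 0.085 on the log2 scale (FDR = 0.000327), and by 0.52 without replicate 2 (FDR = 3.19e-13). Mrpl40, a mitochondria-specific large-subunit protein, was lower with (-0.21 ± 0.071, FDR = 0.0175) and without replicate 2 (-0.12, FDR = 0.0257). The call of Mrpl43 (-0.24 ± 0.092, FDR = 0.0315), another such protein, was lost without it (-0.12, FDR = 0.0731), whereas Mrpl39 was not called with it (0.033 ± 0.091, FDR = 0.794) and was higher without it (0.16, FDR = 0.000932). Mrpl21, Mrps34 and Mrps6 were called in neither case and changed sign, from -0.044, -0.07 and -0.043 with the library to 0.096, 0.073 and 0.055 without it.

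**Figure D2:**
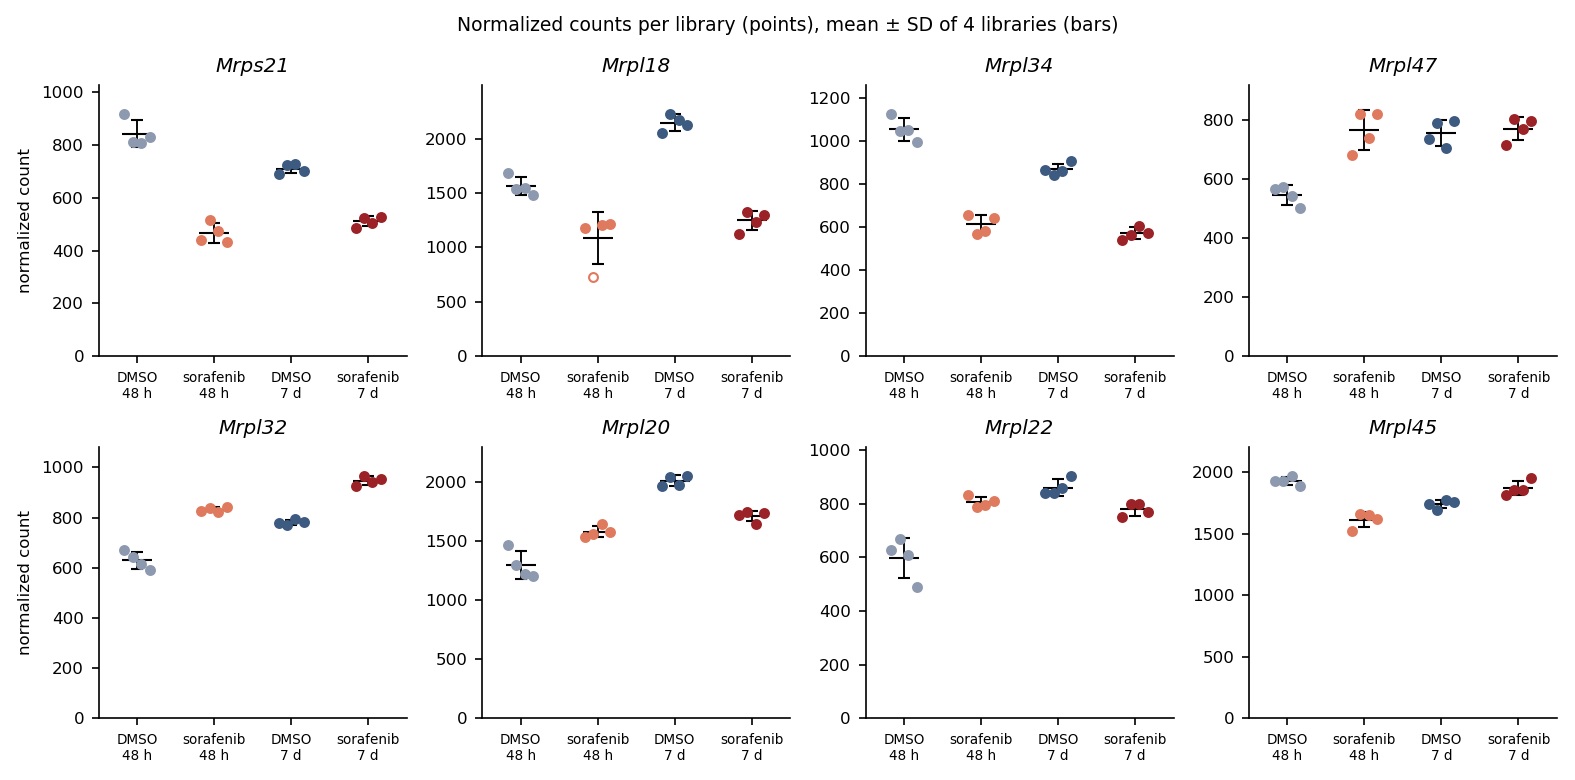
Normalized counts (y axis, from 0) of 8 mitoribosomal genes in each of the 16 libraries, by group (x axis), with a bar at the mean of 4 libraries and an error bar for the SD. The open circle of Mrpl18 is Sorafenib_48h replicate 2, in whose lowered region the gene lies. Mrps21 is lower under sorafenib at both times, and Mrpl20 is higher at 48 hours and lower at 7 days.

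After 7 days of sorafenib, 17 members were higher, 39 lower and 22 not called. Called members made up 71.8%, against 56.8% of all tested genes (28.9% higher and 27.9% lower) and 76.3% of genes averaging 100 counts or more (35.8% higher and 40.6% lower). In 58 members (74.4%) the 4 libraries of each group did not overlap, a state that held for 56.8% of all tested genes. The median log2 fold change was -0.15, against 0.020 over all tested genes and -0.035 over the better-counted genes, and the range was -0.78 to 0.33. Outside the lowered region 13 of 61 members were higher and 33 lower. Leaving out Sorafenib_48h replicate 2, which enters this contrast only through the shared estimate of spread, gave 20 higher and 44 lower.

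Mrpl18 changed most at 7 days. Its libraries had 2049, 2231, 2175 and 2129 normalized counts in DMSO_7d and 1127, 1328, 1237 and 1300.5 in Sorafenib_7d, and it fell by 41.8% (log2 fold change -0.78 ± 0.10, FDR = 1.31e-06). Mrpl11 had 1366, 1443, 1404 and 1480.3 in DMSO_7d and 885, 839.8, 929 and 888 in Sorafenib_7d (log2 fold change -0.69 ± 0.093, FDR = 2.56e-06). Groups of both genes were widely apart. Mrpl36, the counterpart of bacterial L36 (chr13:73476605-73480647), had 785, 849.8, 805 and 835 in DMSO_7d and 556, 529.5, 538 and 520.4 in Sorafenib_7d (log2 fold change -0.61 ± 0.051, FDR = 1.96e-09), a larger fall than at 48 hours (-0.23 ± 0.052) with an interaction of -0.38 ± 0.072 (FDR = 0.000264). Mrpl34 (-0.60 ± 0.053, FDR = 4.99e-09), Mrpl17 (-0.58 ± 0.045, FDR = 7.83e-10) and Mrps12 (-0.55 ± 0.045, FDR = 1.77e-09) fell at this time as well. Mrpl51 (-0.56 ± 0.045, FDR = 1.55e-09) and Mrpl54 (-0.55 ± 0.053, FDR = 2.06e-08), mitochondria-specific proteins of the large subunit, completed the 8 largest falls. Exons of Matk on the opposite strand cover 94.4% of the exon bases of Mrpl54. The library kit keeps strand, but the strand setting of the counting is not given in the sources used here. Exons of another gene lie opposite exons of 57 of the 78 members, and in 7 (Mrpl24, Mrpl41, Mrpl54, Mrps7, Mrps18c, Mrps25 and Mrps34) a protein-coding gene covers over 40% of the exon bases. On the same strand, 8 members overlap exons of another gene, which a strand setting does not separate. Among them are Mrps34 (Nme3, 47.8% of its exon bases), Mrpl3 (Gm38077, 26.4%) and Mrps6 (Slc5a3, 12.6%).

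The largest rises at 7 days were of 0.24 to 0.33 on the log2 scale. Mrpl2, near the peptidyl transferase centre (chr17:46957117-46961065), had 1416, 1389, 1336 and 1506 normalized counts in DMSO_7d and 1750.2, 1777, 1761 and 1819.9 in Sorafenib_7d (log2 fold change 0.33 ± 0.11, FDR = 0.011). Mrps14, a small-subunit protein of bacterial origin (chr1:160022785-160030541), had 932, 956, 981 and 930.3 and 1045, 1253, 1203 and 1223 (log2 fold change 0.32 ± 0.059, FDR = 0.000107). In neither gene did the groups overlap. Mrps10 (0.31 ± 0.11, FDR = 0.0182), Mrps18a (0.31 ± 0.083, FDR = 0.00313), Mrpl37 (0.30 ± 0.037, FDR = 6.86e-07), Mrpl32 (0.28 ± 0.039, FDR = 4.54e-06), Mrpl24 (0.27 ± 0.043, FDR = 2.11e-05) and Mrps6 (0.24 ± 0.077, FDR = 0.0109) followed. The call of Mrps10 was lost without DMSO_7d replicate 1 (log2 fold change 0.28, FDR = 0.0546). Mrpl2, Mrps10, Mrps18a and Mrps6 lie in the lowered region. Without Sorafenib_48h replicate 2 their 7-day changes were 0.33 (FDR = 5.83e-12), 0.31 (FDR = 3.26e-09), 0.31 (FDR = 1.08e-09) and 0.24 (FDR = 1.46e-05) in this order. At 48 hours Mrpl2 gave 0.31 ± 0.11 (FDR = 0.0186), and 0.46 (FDR = 3.67e-15) without the lowered library. Its 48-hour call was lost when any 1 of 6 other libraries was left out, namely DMSO_48h replicate 2 (0.28), 3 (0.28) or 4 (0.28) and Sorafenib_48h replicate 1 (0.23), 3 (0.22) or 4 (0.23), with FDRs from 0.055 to 0.13. Mrps10 gave 0.42 ± 0.11 at 48 hours (FDR = 0.00302) and 0.57 without the lowered library. A fit of the 8 libraries of 48 hours alone called neither Mrpl2 (0.29, FDR = 0.148) nor Mrps10 (0.40, FDR = 0.0559) at that time.

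Set side by side, 21 members were lower at both times, 12 were higher at both, 14 were higher at 48 hours and not called at 7 days, and 14 were lower at 7 days alone. A further 4 were higher at 48 hours and lower at 7 days, 1 was lower and then higher, 4 were higher at 7 days alone, 2 were lower at 48 hours alone, and 6 were called at neither time. The shares of these patterns over all tested genes were not computed, so the counts only describe the members. A call at 1 time and not at the other is no test of a difference, which is given by the interaction of treatment and time (the 7-day minus the 48-hour log2 fold change). The interaction was above 0 in 3 members and below 0 in 29, and 46 were not called. Thus 32 members were called, against 36.8% of all tested genes (15.5% above and 21.3% below 0) and 55.6% of genes averaging 100 counts or more (18.9% above and 36.7% below 0). The median of members was -0.13, that of the better-counted genes -0.078, and that of all tested genes 0.022. The split depended on scaling, with 10 above and 20 below 0 by total counts alone and 9 above and 32 below with the offset for the lowered library. Without Sorafenib_48h replicate 2 it was 6 above and 38 below. Among the 61 members outside the lowered region it was 2 above and 27 below, and 5 above and 24 below with the offset.

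**Figure D3:**
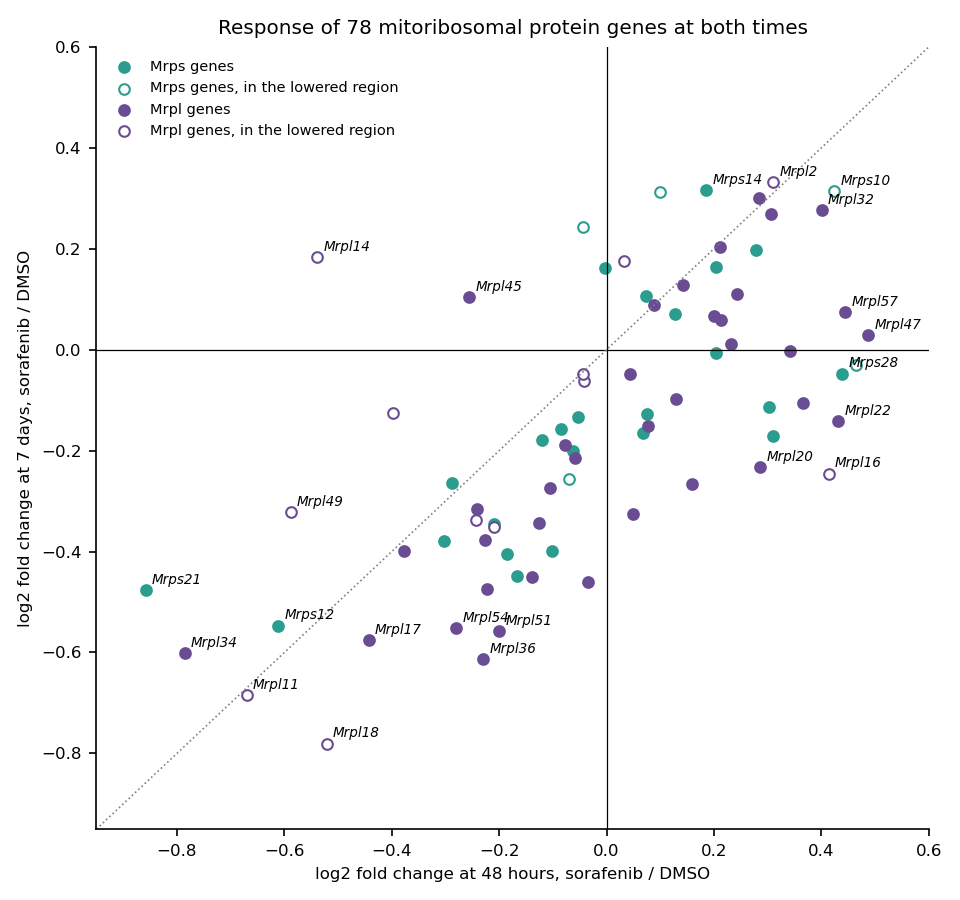
Log2 fold change at 48 hours (x axis) against that at 7 days (y axis) for the 78 genes, coloured by the Mrps or Mrpl name, with open circles for genes in the lowered region and a dotted line of equal change. In the lower left quadrant lie genes such as Mrps21, Mrpl34 and Mrpl18 that fell at both times, and Mrpl20 and Mrpl16 lie at the lower right.

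Mrpl20, a bacterial-type protein of the large subunit (chr4:155887335-155894435), was called in opposite directions at the 2 times. Its libraries had 1462, 1293, 1220.0 and 1201 normalized counts in DMSO_48h, 1534, 1556, 1642 and 1575 in Sorafenib_48h, 1965, 2042, 1969.8 and 2048 in DMSO_7d and 1713, 1741, 1643 and 1732 in Sorafenib_7d. The level was lowest in DMSO_48h and highest in DMSO_7d, with both sorafenib groups between them. It rose at 48 hours (log2 fold change 0.29 ± 0.05, FDR = 5.9e-05) and fell at 7 days (-0.23 ± 0.049, FDR = 0.000364), and the interaction was -0.52 ± 0.07 (FDR = 5.75e-06). The DMSO groups themselves differed by 0.63 ± 0.049 (7 days over 48 hours, FDR = 1.5e-09), whereas the sorafenib groups differed by 0.11. The contrasts share these DMSO libraries.

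DMSO_48h was lowest and DMSO_7d highest by group mean also in Mrpl16, in the lowered region and close to the transfer RNA sites (chr19:11747737-11753838), with 665, 654, 613 and 582 normalized counts in DMSO_48h, 881, 621, 904 and 921 in Sorafenib_48h, 1014, 999, 1027 and 1097 in DMSO_7d and 848, 879, 863 and 899 in Sorafenib_7d. Replicate 2 of Sorafenib_48h lay within the DMSO_48h range, and the other 3 had a mean of 902 (881 to 921), above the 872 of Sorafenib_7d, the reverse of the order of the sorafenib groups in Mrpl20. It fell at 7 days (-0.25 ± 0.081, FDR = 0.0137). Its interaction was -0.66 ± 0.12 (FDR = 0.000141), and -0.77 without replicate 2 of Sorafenib_48h. Mrpl22 (-0.57 ± 0.093, FDR = 5.28e-05), Mrps18b (-0.50 ± 0.14, FDR = 0.0094; -0.63 without replicate 2) and Mrps28 (-0.49 ± 0.077, FDR = 3.82e-05) completed the 5 most negative interactions. At 7 days Mrpl22 itself gave -0.14 ± 0.064 (FDR = 0.0686), and passed the threshold without DMSO_48h replicate 2 (-0.14), DMSO_48h replicate 4 (-0.14) or Sorafenib_48h replicate 2 (-0.14). In the DMSO groups, 7 days over 48 hours, the log2 fold changes were 0.72 for Mrpl16, 0.53 for Mrpl22, 0.74 for Mrps18b and 0.59 for Mrps28, from libraries that also enter the interaction. Mrps23 (48 hours 0.31, 7 days -0.17) and Mrpl19 (0.16 and -0.27) were the other members called higher and then lower. The 48-hour call of Mrpl19 was lost without DMSO_48h replicate 4 (0.10, FDR = 0.0735) or with scaling by total counts (0.089, FDR = 0.144).

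A positive interaction was called for Mrpl14, Mrps21 and Mrpl45. Mrpl14 gave 0.72 ± 0.13 (FDR = 0.000225), and 0.59 (FDR = 1.83e-09) without the lowered library. Its 7-day change of 0.18 ± 0.094 was not called (FDR = 0.103) and passed the threshold without that library (0.18, FDR = 0.00113). Mrps21 gave 0.38 ± 0.08 (FDR = 0.000693), its fall being smaller at 7 days (-0.48 ± 0.056, FDR = 3.14e-07). Mrpl45, which anchors the particle to the inner membrane (chr11:97206542-97232865), had 1924, 1923, 1968 and 1889 normalized counts in DMSO_48h and 1524, 1657, 1649 and 1621 in Sorafenib_48h, then 1738, 1694, 1769.6 and 1757 in DMSO_7d and 1817, 1854, 1856 and 1951 in Sorafenib_7d. It fell at 48 hours (-0.26 ± 0.035, FDR = 3.49e-06) and rose at 7 days (0.10 ± 0.035, FDR = 0.0157), with an interaction of 0.36 ± 0.05 (FDR = 8.2e-06). The rise at 7 days was lost without DMSO_7d replicate 2 (0.092, FDR = 0.052) or Sorafenib_7d replicate 4 (0.083, FDR = 0.0643).

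Between the vehicle groups, 41 members were higher in DMSO_7d than in DMSO_48h and 9 were lower, 64.1% called in all, against 49.4% of all tested genes (23.9% higher and 25.5% lower) and 71.7% of the better-counted genes (38.1% higher and 33.6% lower). The median difference was 0.17 on the log2 scale, against 0.028 over the better-counted genes. Time in culture, and any batch of the time points, cannot be told apart here. The normalized counts of the 78 members summed to 87615 ± 1915 in DMSO_48h, 87099 ± 1546 in Sorafenib_48h, 97640 ± 991 in DMSO_7d and 89221 ± 438 in Sorafenib_7d (SD, n = 4). The 4 DMSO_7d libraries lay above all 12 others, and the other groups lay close together. Outside the lowered region the sums were 68631 ± 1421, 69576 ± 2075, 76191 ± 899 and 69279 ± 325. There Sorafenib_48h replicate 2 had 72651, above the 68161 to 68947 of the other libraries of its group. As a share of all counts, members took 0.359%, 0.340%, 0.384% and 0.356% in the same order.

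**Figure D4:**
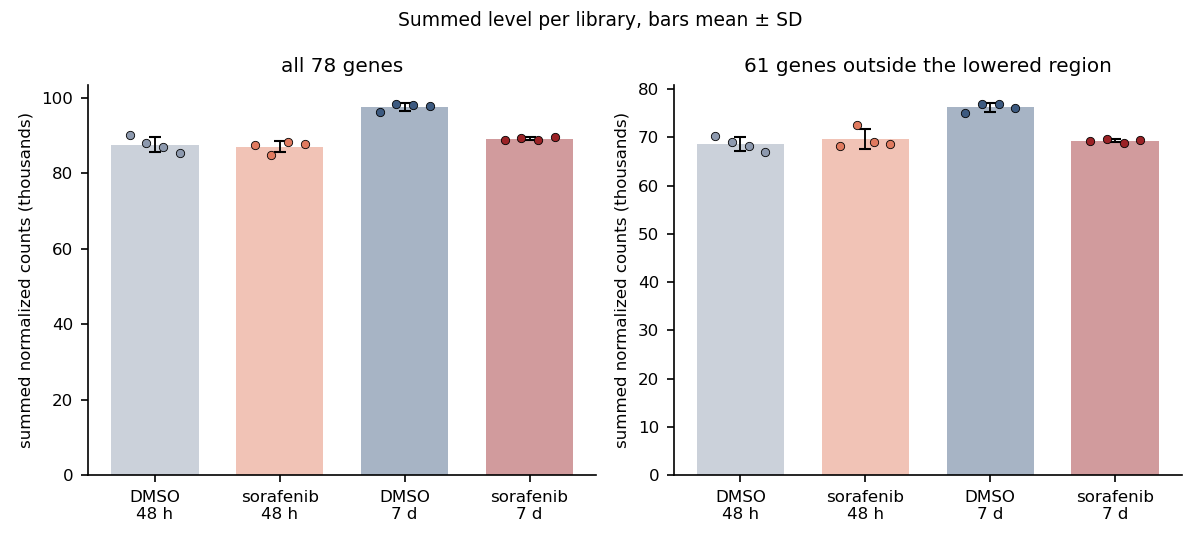
Summed normalized counts (y axis, from 0) in each library (points), by group (x axis), with bars for the mean and error bars for the SD of 4 libraries, for all 78 members and for the 61 outside the lowered region. In both, the DMSO_7d libraries are highest, and Sorafenib_7d is near the 48-hour groups.

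By place in the particle, no class moved in 1 direction. Of the 16 small-subunit proteins with a bacterial counterpart, 5 were higher and 4 lower at 48 hours, and 6 were higher and 8 lower at 7 days. Of the 10 mitochondria-specific small-subunit proteins, 5 were higher and 1 lower at 48 hours, and 1 was higher and 5 lower at 7 days. Of the 30 large-subunit proteins with a bacterial counterpart, 15 were higher and 10 lower at 48 hours, and 7 were higher and 13 lower at 7 days. Of the 21 mitochondria-specific large-subunit proteins, 5 were higher and 8 lower at 48 hours, and 3 were higher and 12 lower at 7 days. Their medians at 7 days were -0.087, -0.16, -0.094 and -0.21 in this order, against -0.15 over all members. By symbol, 10 Mrps genes were higher and 6 lower at 48 hours (8 and 14 at 7 days), and 20 Mrpl genes were higher and 18 lower (9 and 25 at 7 days). Of the better-counted genes, 40.8% were higher and 35.5% lower at 48 hours, and 35.8% and 40.6% at 7 days. Over all tested genes these shares were 26.9% and 27.7%, then 28.9% and 27.9%. Differences between these classes, and from these shares, were not tested.

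The 3 stalk proteins, which bring translation factors to the ribosome, did not move together. Mrpl11 was lower at both times, as given above. Mrpl12, which forms the mobile arms of the stalk, was lower at 48 hours (-0.14 ± 0.04, FDR = 0.00599) and at 7 days (-0.45 ± 0.04, FDR = 5.52e-09). Mrpl10 was called higher by small amounts, at 48 hours (0.088 ± 0.034, FDR = 0.0335) and at 7 days (0.089 ± 0.033, FDR = 0.0298). The 48-hour call of Mrpl10 was lost without any 1 of 7 libraries of its 8 (log2 fold changes 0.046 to 0.075), DMSO_48h replicate 2 being the exception, and under 7 other settings (0.018 to 0.072), DESeq2, voom and total counts among them. Its 7-day call was lost without DMSO_7d replicates 2 (0.086) or 3 (0.084), or Sorafenib_7d replicates 1 (0.083), 2 (0.088) or 3 (0.087). Around the exit tunnel, Mrpl47, Mrpl22 and Mrpl24 rose at 48 hours, whereas Mrpl17, Mrpl23 and Mrpl45 fell. At 7 days Mrpl24 (0.27 ± 0.043) and Mrpl45 (0.10 ± 0.035) were higher, Mrpl17 (-0.58 ± 0.045) and Mrpl23 (-0.40 ± 0.092, FDR = 0.000966) were lower, and Mrpl22 (-0.14 ± 0.064) and Mrpl47 (0.029 ± 0.062) were not called. Mrpl24 overlaps exons of Mettl25b on the opposite strand over 41.2% of its exon bases, and Mrpl23 has a named pseudogene, as have Mrpl27, Mrpl48 and Mrps36.

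The 3 paralogs of bacterial S18 take different places, Mrps18a in the large subunit and Mrps18b and Mrps18c in the small subunit. Mrps18a had 967, 886, 913 and 913 normalized counts in DMSO_48h and 1086, 719.8, 1053 and 1062 in Sorafenib_48h, where replicate 2 was far below the others. Its 48-hour change of 0.10 ± 0.086 was not called (FDR = 0.355), but was 0.21 without that library (FDR = 5.53e-05). Mrps18b, in the lowered region as well, had 778, 737, 708 and 709 in DMSO_48h and 1173, 677, 1113 and 1062 in Sorafenib_48h. It rose by 0.47 ± 0.10 on the log2 scale (FDR = 0.000727), and by 0.60 without replicate 2, and was not called at 7 days (-0.031 ± 0.098, FDR = 0.81). Mrps18c gave -0.0019 ± 0.058 at 48 hours (FDR = 0.984) and 0.16 ± 0.055 at 7 days (FDR = 0.0169). The 7-day call was lost without DMSO_7d replicate 3 (0.14, FDR = 0.0575) or Sorafenib_7d replicate 1 (0.12, FDR = 0.0762), and exons of Abraxas1 on the opposite strand cover 76.9% of its exon bases. Mrps36, now regarded as a component of 2-oxoglutarate dehydrogenase despite its name, was lower at 48 hours (-0.29 ± 0.084, FDR = 0.00654) and at 7 days (-0.26 ± 0.083, FDR = 0.0106).

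Of the members named for their level, Mrpl42 was lower at 48 hours (-0.22 ± 0.036, FDR = 2.69e-05) and at 7 days (-0.47 ± 0.036, FDR = 5.34e-10). Mrpl28, in the lowered region, gave -0.40 ± 0.10 at 48 hours (FDR = 0.00261) and -0.25 without replicate 2. At 7 days it gave -0.13 ± 0.10 (FDR = 0.31), which passed the threshold without that library (-0.13, FDR = 0.00094). Mrpl13, in the same region, gave -0.041 ± 0.096 at 48 hours (FDR = 0.751) and 0.098 without the library (FDR = 0.0127), a change of sign. Mrpl48 (-0.46 ± 0.046, FDR = 3.22e-08), Mrps25 (-0.40 ± 0.051, FDR = 9.86e-07) and Mrps33 (-0.40 ± 0.10, FDR = 0.00181) were lower at 7 days and not called at 48 hours. Exons of Nr2c2 on the opposite strand cover 47.9% of the exon bases of Mrps25. The 48-hour value of Mrps25 (-0.10 ± 0.052, FDR = 0.108) passed the threshold without DMSO_48h replicate 4 (-0.18) or Sorafenib_48h replicate 4 (-0.16). Mrpl55, the counterpart of bacterial L31, was higher at 48 hours (0.21 ± 0.054, FDR = 0.00213) and not called at 7 days (0.06 ± 0.052, FDR = 0.345). Mrps14 at 48 hours (0.19 ± 0.06, FDR = 0.0127) lost its call without DMSO_48h replicates 1 (0.15) or 4 (0.12) or Sorafenib_48h replicate 3 (0.13), or with scaling by total counts (0.12, FDR = 0.121).

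The levels of pairs of members were also compared over libraries, by Pearson's correlation of log2 normalized counts. The 3003 pairs had a median of 0.16 over 16 libraries and of 0.18 over 15 without Sorafenib_48h replicate 2, and over these 15 a share of 41.7% was below 0. The most alike were Mrps12 and Mrpl34 (0.98), Mrps2 and Mrpl42 (0.98), Mrpl51 and Mrpl12 (0.97), Mrpl37 and Mrpl32 (0.96) and Mrps26 and Mrpl46 (0.96 over 16 libraries). None of these 5 pairs lies in the lowered region. The libraries fall into 4 groups and share their scaling, so these values describe the order of the groups more than independent samples.

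For 19 members (24.4%) the start lies head to head with that of another protein-coding gene, within 500 bases upstream or 200 bases inside, against 9.41% of 10254 protein-coding genes averaging 100 counts or more. The genes of such pairs changed in the same or in opposite directions. Both genes were called at 48 hours in 9 pairs, 6 in the same and 3 in opposite directions, and outside the lowered region in 6 pairs, 3 each way. At 7 days both were called in 7 pairs, 5 in the same and 2 in opposite directions. Of the better-counted genes, 76.4% were called at 48 hours and 76.3% at 7 days, and of all tested genes 54.6% and 56.8%. The share of other head-to-head pairs called in the same or in opposite directions was not computed, so these counts only describe the 19 members and their partners. Mrpl57 rose at 48 hours, whereas its partner Ska3, a kinetochore gene, fell (log2 fold change -0.38 ± 0.048, FDR = 1.19e-06). Mrpl32, whose start lies 54 bases from that of Psma2 in GENCODE, was higher at 7 days (0.28), whereas the proteasome gene Psma2 was lower (-0.33 ± 0.037, FDR = 1.68e-07). Mrpl54 was lower and Apba3 higher at 48 hours (0.30 ± 0.062) and at 7 days (0.33 ± 0.061, FDR = 0.000103).

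In other pairs both genes fell. Mrpl51 and the condensin gene Ncapd2 were lower at 48 hours (-0.20 and -0.68) and at 7 days (-0.56 and -0.73). Mrps12 and Sars2, the mitochondrial seryl-tRNA synthetase, were lower at both times, Sars2 by less (-0.15 and -0.14). Mrpl43 and Twnk, the mitochondrial DNA helicase, lie in the lowered region and were lower at 7 days (-0.34 and -0.49). Exons of these partners overlap the members on the opposite strand. Twnk covers 28.6% of the exon bases of Mrpl43, Sars2 19.3% of Mrps12 and Ncapd2 7.8% of Mrpl51. In the opposed pair of Mrpl57 and Ska3 the share is 7.5%. The strand setting of the counting is not given, and the part of shared bases in these changes was not tested. Mrpl47 rose at 48 hours, and its partner Ndufb5, a complex I subunit, was not called (-0.021 ± 0.044, FDR = 0.717). Mrpl46 and Mrps11 are partners of each other, with starts 30 bases apart in GENCODE. Mrpl46 rose at 48 hours (0.37 ± 0.065), whereas Mrps11 gave -0.12 ± 0.055 (FDR = 0.074). At 7 days Mrps11 was lower (-0.18 ± 0.052, FDR = 0.00657) and Mrpl46 was not called (-0.11 ± 0.06). The stretch between the RefSeq starts of Mrps11 and Mrpl46 holds none of the letters searched.
Mrps11 to Mrpl46 (chr7:78783090-78783130, GRCm38.p6, strand of Mrps11): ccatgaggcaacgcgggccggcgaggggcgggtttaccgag

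**Figure D5:**
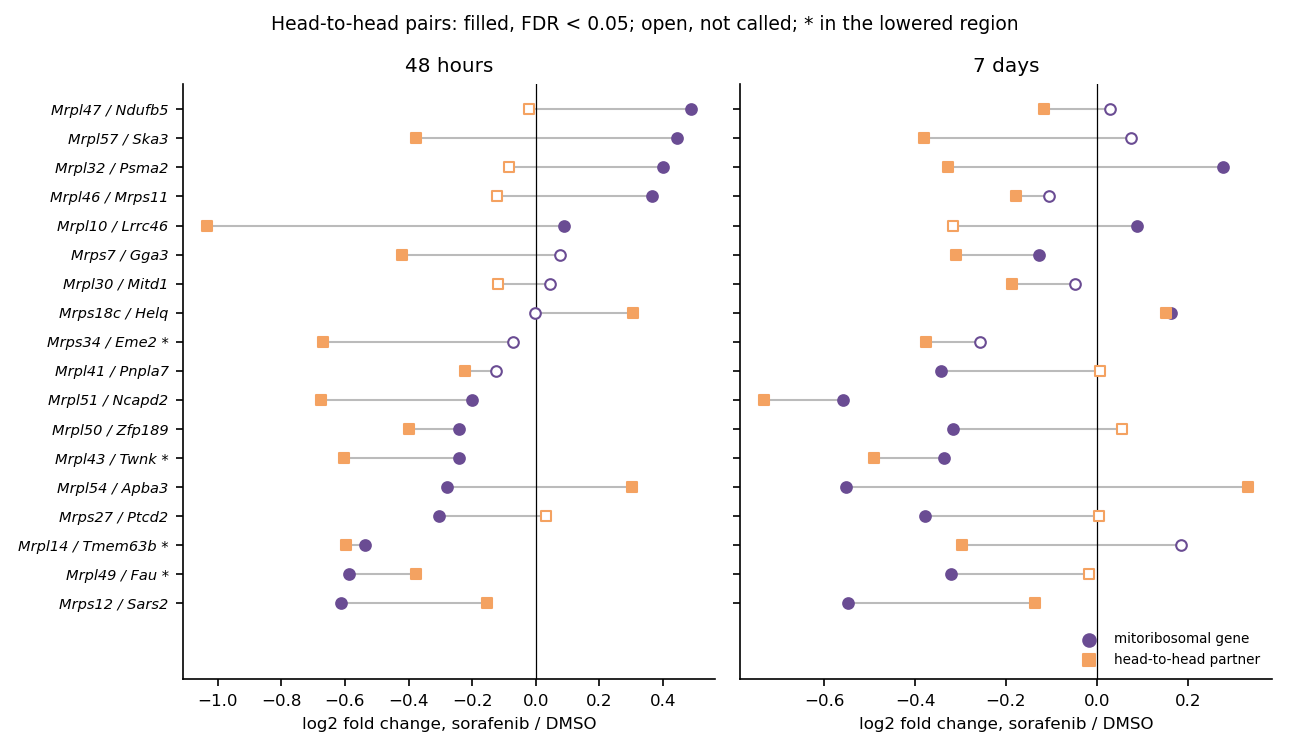
Log2 fold changes (x axis) of mitoribosomal genes (circles) and their head-to-head partners (squares) at 48 hours and 7 days, 1 pair per row, with filled markers for an FDR under 0.05 and an asterisk for pairs in the lowered region. Pairs such as Mrpl57 and Ska3, or Mrpl54 and Apba3, stand on opposite sides of 0.

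The number of exons went weakly with the change. Across the 78 genes, Spearman's rho of exon number with the log2 fold change was 0.32 at 48 hours and 0.38 at 7 days, against 0.12 and 0.064 across 10254 protein-coding genes. Across the 61 members outside the lowered region it was 0.26 and 0.38. For transcript length, rho was 0.20 and 0.13 across the 78 members, against 0.12 and 0.035 across the 10254 genes. These are correlations across genes, which are not independent replicates and share all libraries. Of the 26 members with the shortest transcripts (555 to 1288 bases), 7 were higher and 10 lower at 48 hours, and 4 were higher and 15 lower at 7 days. Of the 26 longest (2896 to 7366 bases), 14 were higher and 5 lower at 48 hours, and 5 were higher and 10 lower at 7 days. Of the 26 members between them, 9 were higher and 9 lower at 48 hours, and 8 and 14 at 7 days. Of the better-counted genes, 40.8% were higher and 35.5% lower at 48 hours, and 35.8% and 40.6% at 7 days. Over all tested genes these shares were 26.9% and 27.7%, then 28.9% and 27.9%. Differences by length were not tested.

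Genes that work with the mitoribosome but carry other names were read from fixed lists. For the counts below, 26.9% of all tested genes were higher and 27.7% lower at 48 hours, and 28.9% and 27.9% at 7 days. Of the better-counted genes, 40.8% were higher and 35.5% lower at 48 hours, and 35.8% and 40.6% at 7 days. Of 5 mitoribosomal proteins with other names, 2 were higher and 3 lower at 48 hours, and 1 was higher and 3 lower at 7 days. Among them Dap3, a GTP-binding protein of the small subunit, was lower at 48 hours (-0.24 ± 0.034) and 7 days (-0.17 ± 0.034), Gadd45gip1 was lower at both (-0.19 and -0.16), Aurkaip1 was higher at both (0.18 and 0.31), and Chchd1 was higher at 48 hours (0.22) and not called at 7 days (0.0029). Of 28 assembly factors, 10 were higher and 2 lower at 48 hours, and 7 were higher and 8 lower at 7 days. The GTPase Gtpbp10 was the most changed at 48 hours, with 631 ± 34.8 normalized counts in DMSO_48h and 1215 ± 62.0 in Sorafenib_48h (log2 fold change 0.95 ± 0.048, FDR = 9.13e-13), and remained higher at 7 days (0.56 ± 0.046). The ribosomal RNA methyltransferase Mettl15 was higher at both times (0.67 and 0.71). Mterf4 was lower at 48 hours (-0.59 ± 0.06) and 7 days (-0.31 ± 0.06). Mpv17l2 was not called at 48 hours (-0.08 ± 0.057) and was lower at 7 days (-0.69 ± 0.055, FDR = 9.84e-10).

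Of 15 translation factors, 8 were higher and 2 lower at 48 hours, and 4 were higher and 6 lower at 7 days, with medians of 0.27 and -0.035. The medians of the better-counted genes were 0.021 and -0.035, and their shares called are given in the paragraph before. The elongation factor Gfm1 (0.52 ± 0.043, FDR = 1.97e-09), the formyltransferase Mtfmt (0.50 ± 0.053) and the translational activator Taco1 (0.48 ± 0.067) had the 3 largest rises at 48 hours over all libraries. Lrpprc, an RNA-binding protein that stabilises mitochondrial messages, lies in the lowered region and gave 0.47 ± 0.081, and 0.59 without Sorafenib_48h replicate 2 (FDR = 7.94e-24), which is above Gfm1 (0.50), Mtfmt (0.50) and Taco1 (0.46) in that fit. At 7 days the elongation factor Tufm (-0.56 ± 0.043, FDR = 5.08e-10) and the recycling factor Mrrf (-0.48 ± 0.051) were lower and Guf1 was higher (0.32 ± 0.052), each called in the same direction at 48 hours (-0.35, -0.29 and 0.27). Of 4 genes of mitochondrial transcription, 2 were higher and 2 lower at 48 hours. Polrmt, the mitochondrial RNA polymerase, was lower at both times (-0.36 ± 0.044 and -0.55 ± 0.044), Tefm was higher at both (0.45 and 0.19), Tfam was lower at both (-0.14 and -0.26), and Tfb2m was higher at 48 hours (0.35) and not called at 7 days (0.14). The ribosomal RNAs mt-Rnr1 (-0.58 and 0.67) and mt-Rnr2 (-0.39 and 0.29) were not called for the drug at either time over all libraries, and the interaction of mt-Rnr1 was (1.25 ± 0.42, FDR = 0.0234). Without Sorafenib_48h replicate 2, mt-Rnr1 was lower at 48 hours (-0.47, FDR = 0.0406) and higher at 7 days (0.67, FDR = 0.00119). In a poly(A) library their counts varied widely between libraries of 1 group, from 5795 to 18240 normalized counts for mt-Rnr1 in DMSO_7d. Mitochondrially encoded protein genes were not analysed here.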

How the data were processed

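The deposited table holds raw read counts per gene for 16 libraries. Per the labels, RNA was prepared with the Illumina Stranded mRNA Prep kit. The submitters' processing notes name STAR 2.7.1a, featureCounts 2.0.6 (Subread), DESeq2 1.40.2 and GRCm39; the strand setting and annotation of the authors' counts are not given in the sources used here. Groups were taken from the labels, and the dose from the study's methods. Replicate libraries differed by more than sampling noise, with a chi-square per gene of 1.58 to 71.5 between pairs.

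Genes with at least 10 counts in total were tested with edgeR 4.0.16 (quasi-likelihood test, TMM, 1 coefficient per group, 4 contrasts, Benjamini-Hochberg adjustment, R 4.3.3). The test was checked on simulated counts of 20103 genes for the 48-hour contrast. It recovered 43 of 66 changes of 0.3 on the log2 scale, 64 of 67 of 0.5 and 66 of 67 of 1, with 8 false calls. Changes of 0.3 can therefore go uncalled. The simulated libraries had no lowered region. limma 3.58.1 (voom) and DESeq2 1.42.0 served as alternatives, beside other scalings, filters and each library left out in turn. Positions and canonical transcript lengths came from GENCODE vM39; the RefSeq length planned for levels per kilobase is a genomic span and was replaced. Correlations used log2(normalized count + 0.5). Named members were, at each time, the 8 largest rises and falls with an FDR under 0.05, an average of 100 normalized counts or more in the 8 libraries concerned and groups that did not overlap, the 5 largest called interactions each way, the 5 highest and lowest levels, the stalk, exit tunnel and Mrps18 lists, Mrps36, members called in opposite directions, and the 3 largest changes of each other list. Head-to-head pairs and the members whose sequences are shown were chosen after their values were seen. The members, lists and markers were chosen with earlier results of these data known.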

Additional observations from a re-analysis of the deposited data

Results flagged for a closer look

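Single libraries standing apart from the other 3 of their group (Dixon's test) were found in 11 of 172 groups of 4 libraries of the named members, where chance flags about 1 in 20, and in 1 of 8 groups of summed values. Of these, 7 are Sorafenib_48h replicate 2 in genes of the lowered region. It had 539.84 normalized counts of Mrpl11 (the others 859 to 923), 725.83 of Mrpl18 (1180.0 to 1220), 1117.48 of Mrpl2 (1861 to 1924), 774.22 of Mrps10 (1283 to 1345), 719.78 of Mrps18a (1053 to 1086), 621.49 of Mrpl16 (881 to 921) and 1044.89 of Mrpl28 (1718 to 1790.4). Elsewhere, DMSO_48h replicate 4 had 304.17 of Mrps28 (the others 344 to 347), DMSO_48h replicate 3 had 1599.79 of Mrpl42 (1728 to 1743), DMSO_48h replicate 1 had 2282.41 of Mrpl28 (2002 to 2024), and DMSO_7d replicate 1 had 1694.28 of Mrpl49 (1593 to 1604). The members took 0.3728% of the counts in DMSO_48h replicate 1 and 0.3527% to 0.3551% in the other 3.

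The response to sorafenib differed between 48 hours and 7 days, by edgeR's interaction test, in Mrpl16 (log2 difference -0.6592), Mrpl22 (-0.5735), Mrpl20 (-0.5195), Mrps18b (-0.4959), Mrps28 (-0.4859), Mrpl14 (0.7226), Mrps21 (0.3823) and Mrpl45 (0.3595).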

How the results depend on the processing

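Leaving out each library in turn gave 26 to 33 members higher and 23 to 29 lower at 48 hours, 14 to 20 higher and 39 to 44 lower at 7 days, 3 to 6 with an interaction above 0 and 26 to 38 below, and 38 to 47 higher and 6 to 10 lower in DMSO at 7 days than at 48 hours. Of the related genes outside the name rule, 22 to 27 of 52 were called at both times against 24 with all libraries, a set of alternatives chosen after seeing the data. The share of all tested genes called at both times was not computed. The 3 interactions above 0 became 5 with DESeq2, 5 with its size factors, 10 with total counts, 7 with 10 counts required in every library, 6 with limma voom and 9 with the offset for the lowered library; the cause was not tested. A minimum log2 fold change of 1 in either direction left 0 members in every count, and 0 related genes at both times. The other counts stayed within 1.5 times their value under each alternative. Mrpl13 at 48 hours was reversed without Sorafenib_48h replicate 2 (0.0975), the range over libraries left out being -0.15 to 0.0975. Of 96 results for 43 named members, calls were lost and gained as follows: 3 and 4 with only the 8 libraries of the time point (interactions left out), 3 and 2 with total counts, 1 and 4 with voom, 1 and 5 with the offset, 1 and 2 with 10 counts in every library, and 1 and 0 with DESeq2 or its size factors. The losses were of Mrpl10, Mrpl2, Mrps10, Mrps14 and Mrpl19 at 48 hours. The replicate block changed 0 calls, and with the block 30 members were higher and 25 lower at 48 hours, 16 higher and 39 lower at 7 days, and 4 interactions were above and 27 below 0. A pairing of libraries by replicate number was not shown. Deviations of libraries with the same number correlated by -0.009 on average at 48 hours (-0.047 to 0.0080), against 0.003 for different numbers (-0.040 to 0.071). At 7 days the averages were 0.068 (-0.0068 to 0.12) and -0.022 (-0.16 to 0.11), values that do not settle whether a weak pairing exists. Without a length correction, 2 of the 5 highest members in DMSO_48h were among the 5 highest. Scaling by total counts moved the median of all tested genes at 48 hours from -0.051 to -0.12 and that of the members from -0.018 to -0.089.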
